A study of Mus musculus with 7 samples.

Results

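Genes annotated only as noncoding RNA made up 203 of the 11778 genes that could be named in mouse B cell libraries sequenced as RNA. A gene belonged to the group when every matching transcript of the merged annotation had a noncoding RefSeq accession and when its level reached 5 FPKM in at least 1 of 7 libraries. FPKM divides the fragments of a transcript by its length and by the depth of the library, and so is a level per length. Names of small nuclear, nucleolar and Cajal body RNAs, microRNAs, the Snhg genes under that name, and Gas5 were left out by name. The members were thus selected on their highest FPKM, and their levels are given as a description.

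The study stimulated primary B cells of wild type C57BL/6 mice. One library held unstimulated cells at 0 h, and 6 libraries held cells after 8 h or 30 h with anti-IgM, which binds the antigen receptor, with BAFF, a survival factor of B cells, or with both. Each condition had 1 library, so there were no replicates and no test was made. The intervals quoted cover counting error only, and because no cells were cultured without a stimulus, time in culture cannot be told apart from stimulus wherever the 0 h library is used.

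Long noncoding RNAs are transcripts without a long open reading frame. Some act in the nucleus, where Malat1 lies in splicing speckles and Neat1 builds paraspeckles, and others act in the cytoplasm, where Norad binds Pumilio proteins. Many more are made from the promoter of a neighbouring coding gene or opposite its exons, and a further class exists mainly to carry small nucleolar RNAs in its introns. Small nucleolar RNAs guide the chemical modification of ribosomal RNA, and their host transcripts often start with a pyrimidine tract, as mRNAs of ribosomal proteins do.

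The label of long noncoding RNA fitted most members but not all. By RefSeq as given for this work, 157 of the 203 were long noncoding RNAs and 1 was an antisense RNA. Another 28 were pseudogenes, 13 were by then protein coding, and 4 had no match, among them Rn45s, the precursor of ribosomal RNA. Of the long noncoding RNAs, 12 held a small nucleolar RNA of the GENCODE annotation, several of them under clone names of genes since renamed into the Snhg family. Gm11974 is now Snhg15, 1810032O08Rik is Snhg16, 9430008C03Rik is Snhg17 and 2810008D09Rik is Snhg20. The name filter therefore did not remove all hosts of small nucleolar RNAs.

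The sequences around the annotated starts of 7 such hosts are shown first, because these hosts were counted higher together with anti-IgM at 8 h. Each window runs from 50 bases before the start to 50 bases from it, from RefSeq on GRCm38.p6, with capitals for the E-box CACGTG and for a C followed by at least 4 bases that are C or T within 10 bases of the start. Gm11974 (Snhg15) lies at chr11:6528711-6528810 on the minus strand, 1110038B12Rik at chr17:34952419-34952518 on the minus strand and 5730408K05Rik at chr19:8888721-8888820 on the minus strand. Snhg16 lies at chr11:116671610-116671709 on the plus strand, Snhg17 at chr2:158361460-158361559 on the minus strand, Dancr at chr5:74093010-74093109 on the plus strand and Snhg20 at chr11:117076733-117076832 on the plus strand.
Snhg15: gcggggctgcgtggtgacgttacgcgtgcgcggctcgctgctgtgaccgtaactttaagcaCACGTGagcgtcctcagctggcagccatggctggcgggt
1110038B12Rik: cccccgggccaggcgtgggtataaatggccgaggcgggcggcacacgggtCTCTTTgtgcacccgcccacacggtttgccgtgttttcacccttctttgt
5730408K05Rik: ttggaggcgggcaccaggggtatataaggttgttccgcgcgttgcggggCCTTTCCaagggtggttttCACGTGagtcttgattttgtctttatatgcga
Snhg16: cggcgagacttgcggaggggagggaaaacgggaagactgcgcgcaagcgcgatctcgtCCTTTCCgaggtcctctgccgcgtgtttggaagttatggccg
Snhg17: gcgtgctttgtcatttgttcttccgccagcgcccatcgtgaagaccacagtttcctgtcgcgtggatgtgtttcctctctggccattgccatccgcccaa
Dancr: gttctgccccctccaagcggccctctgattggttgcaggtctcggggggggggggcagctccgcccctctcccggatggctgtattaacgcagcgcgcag
Snhg20: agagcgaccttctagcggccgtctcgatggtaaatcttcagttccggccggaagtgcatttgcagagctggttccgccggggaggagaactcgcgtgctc

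Over promoter windows of 300 bases, 139 members had a RefSeq sequence. The E-box CACGTG, which reads the same on both strands, was present in 3 of 11 hosts (27.3%), in 19 of the 139 members (13.7%) and in 7.15% of all 32851 promoters of the table. The pyrimidine tract, searched on the strand of the gene, was found in 5 of 11 hosts (45.5%), in 36.7% of members and in 30.7% of all promoters. With anti-IgM at 8 h, the E-box was in 2 of 14 members counted higher (14.3%) and 4 of 16 counted lower (25%). The tract was in 5 of these 14 (35.7%) and 8 of these 16 (50%), so neither was more frequent in members counted higher. A match is a description of these letters and was not linked to any factor.

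What the hosts carry is shown by a C/D box RNA from 1110038B12Rik and H/ACA box RNAs from Dancr and Snhg15, taken from the GENCODE transcripts. Capitals mark the C box TGATGA and the D box CTGA of Snord52, at chr17:34950952-34951017 on the minus strand. In Snora26, at chr5:74093530-74093650 on the plus strand, and in Snora9, at chr11:6528033-6528165 on the minus strand, they mark the last ACA.
Snord52: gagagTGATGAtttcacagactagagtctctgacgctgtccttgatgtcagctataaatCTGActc
Snora26: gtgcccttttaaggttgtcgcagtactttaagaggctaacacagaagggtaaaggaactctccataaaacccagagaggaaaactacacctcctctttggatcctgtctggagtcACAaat
Snora9: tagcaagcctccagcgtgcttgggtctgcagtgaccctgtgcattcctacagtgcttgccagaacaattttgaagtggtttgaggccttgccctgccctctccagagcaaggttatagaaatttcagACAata

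The values below rest on 18424000 to 27963000 mapped fragments per library, to the nearest 1000, recovered from the deposited values. B cell markers were present, with 9 or 10 of 11 assembled per library and a summed level of 1180 to 3494 FPKM, although Ighm had no named transcript in any library and Cd79a had one in the both-stimuli library at 8 h and the BAFF library at 30 h only. Of 11 T cell markers 1 to 3 were assembled per library, with a summed level of 16.3 to 96.3 FPKM (24.3 at 0 h). Lck was assembled in every library and Lat in those with a single stimulus. Cd4 was assembled at 0 h and with BAFF at 30 h, Cd8a at 0 h and Cd3g with anti-IgM at 30 h. Cd3d, Cd3e, Cd247, Cd8b1, Thy1 and Trac were assembled in none. Macrophage and monocyte markers summed to 404 FPKM at 0 h and to between 30.7 and 138 FPKM in the cultured libraries. Of the 14 in the list, 12 were assembled at 0 h. In culture 7, 9 and 7 were assembled at 8 h (anti-IgM, BAFF, both) and 12, 12 and 11 at 30 h. Only markers assembled in both libraries could be counted. Against 0 h, 7 or 8 were counted lower in every cultured library and 1 was higher with anti-IgM at 30 h. Of all genes, 4.07% to 10.5% were lower. The markers' medians were between -2.26 and -3.29 on the log2 scale, and their part in the members' differences was not tested. Erythroid markers summed to 221 FPKM at 0 h, nearly all of it the globin gene Beta-s, and to 48.1 FPKM or less in culture. Stroma markers, almost all Pecam1, summed to 110 FPKM at 0 h and to between 18.6 and 80.6 FPKM in culture, lowest in the 8 h libraries with anti-IgM, and the part of these lists was not tested either. In bulk RNA, fewer cells of a type and less RNA per cell cannot be told apart.

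Members were low, short and often seen in only some libraries. The median of their highest levels was 11.3 FPKM, against 22.8 FPKM for coding genes that reached the same minimum. The highest level was at least 10 FPKM in 112 members, at least 50 FPKM in 22 and at least 100 FPKM in 11. Just inside the minimum were 4833418N02Rik at 5.002, C030034I22Rik at 5.01, A330023F24Rik at 5.13 and BC025920 at 5.18 FPKM, and just outside were F630028O10Rik at 4.97, Gm4532 at 4.96, A230020J21Rik at 4.90 and E330033B04Rik at 4.88 FPKM. All of these edge members thus differ from their neighbours by less than 1 FPKM, and some would change sides with another choice of minimum.

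The median spliced length was 1852 bases, with a range from 295 to 83437 bases, against 3218 bases in coding genes. Members had a median of 3 exons against 9, and 19.2% had a single exon against 1.53%. The share assembled in all 7 libraries was 56.7% (115 members), against 89.4% of all genes at 5 FPKM or more. Among these 115 the highest level was a median of 2.62 times the lowest, against 2.15 times in all such genes. By position, 42 members overlapped exons of a coding gene on the other strand, another 38 started within 1000 bases of a coding start on the other strand, 22 lay inside or shared bases with a coding gene on the same strand and 101 did none of these. The assembled pieces covered a median of 77.7% of a member's exon bases, but under 25% in every library in 15 members, Kcnq1ot1 among them.

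Members entered a comparison if both libraries had an assembled transcript of the gene and 1 of them held at least 1 FPKM. A member was counted higher or lower if its deposited intervals did not overlap and the difference in log2(FPKM + 1) reached 1. A count was called held when the coverage of the gene's exons by all assembled pieces on either strand also differed by at least 1 the same way, a measure calculated from the same deposited values and so not independent of them.

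With anti-IgM at 8 h, 16 of 143 members compared were counted higher than at 0 h (11.2%) and 23 lower (16.1%), where 10.8% of all genes compared were higher and 10.5% lower. Held were 9 of those higher and 7 of those lower. Hosts of small nucleolar RNAs supplied 7 of the members counted higher, and the other long noncoding RNAs supplied 5 higher and 20 lower of 97 compared. The median difference was -0.25 over the members and 0.04 over all genes compared. By exon coverage alone the order turned, with 25 members higher and 22 lower. Here and below, no share of all genes is given for held counts, counts by exon coverage or counts after scaling libraries to equal medians. Those counts describe the members only.

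With both stimuli at 8 h, 12 of 142 members compared were counted higher (8.45%) and 18 lower (12.7%), beside 12.3% and 9.02% of all genes. The members' share was below the background in the higher direction and above it in the lower. With BAFF alone at 8 h, 7 of 146 were counted higher (4.79%) and 9 lower (6.16%), beside 5.86% and 4.35% of all genes. After libraries were scaled to equal medians the BAFF counts were 7 higher and 15 lower. A single one of the BAFF counts was held, that of Snhg20. At 30 h the members counted lower outnumbered those counted higher.

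With anti-IgM at 30 h, 5 of 149 were higher (3.36%) and 27 lower (18.1%), beside 8.6% and 7.35% of all genes. With both stimuli at 30 h, 5 of 142 were higher (3.52%) and 20 lower (14.1%), beside 8.44% and 7.88%. With BAFF at 30 h, 4 of 148 were higher (2.70%) and 9 lower (6.08%), beside 5.15% and 4.07%, and after scaling to equal medians 2 were higher and 11 lower. By exon coverage alone the 30 h counts were 12 higher and 17 lower with anti-IgM, 15 and 19 with both and 12 and 6 with BAFF. Held lower were 4 members with anti-IgM, 9 with both and 0 with BAFF at 30 h. In none of these 6 comparisons were 126 members counted, and all 6 share the 0 h library. The 126 include 38 members not assembled at 0 h, which could enter none of the 6. No share of all genes is given for this number, so it does not show that these members were unchanged.

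**Figure D1:**
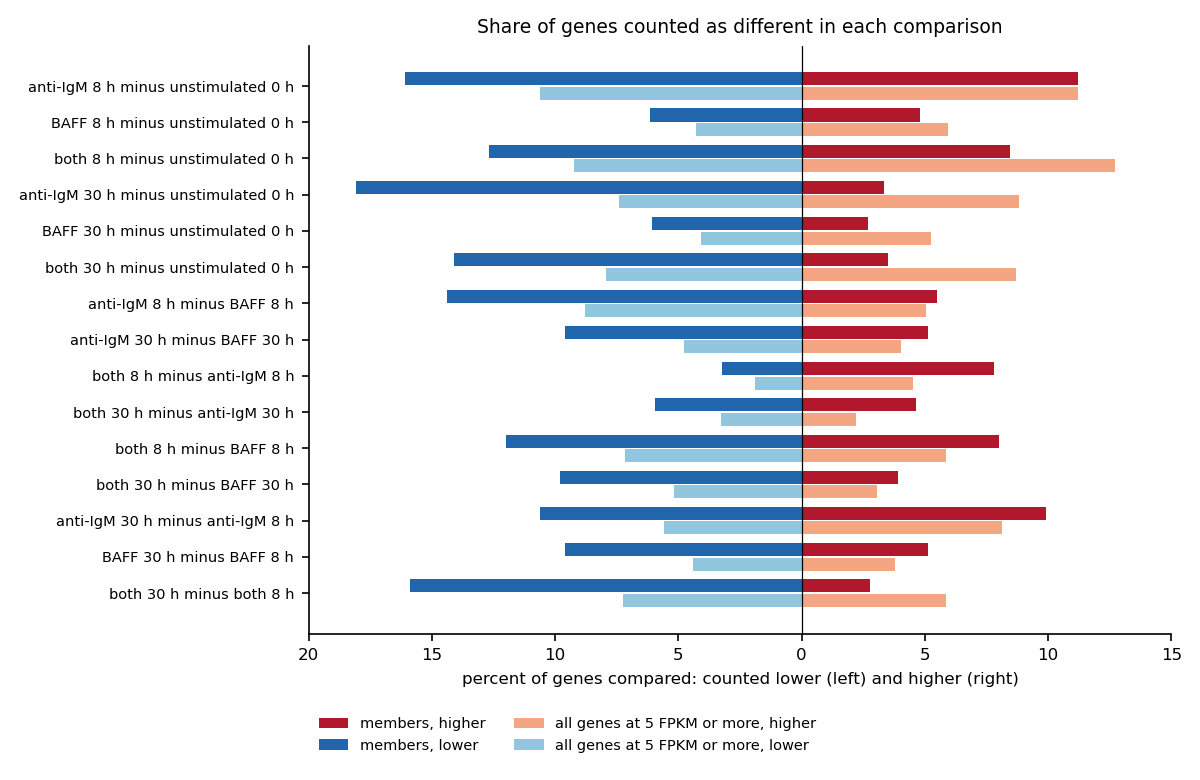
Percent of compared genes counted lower (bars to the left) and higher (bars to the right) in each of 15 comparisons, for the noncoding members (dark) and for all genes at 5 FPKM or more (pale), with "both" for anti-IgM and BAFF together. Against 0 h with anti-IgM at 30 h, 18.1% of members and 7.42% of all such genes were lower, while 3.36% and 8.82% were higher.

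Most but not all of the transcripts that carry small nucleolar RNAs were counted higher in the 8 h libraries with anti-IgM. Against 0 h, 7 of the 11 compared were counted higher and 0 lower with anti-IgM at 8 h, with a median difference of 1.34 on the log2 scale, where 10.8% of all genes were higher. With both stimuli at 8 h it was 7 higher and 1 lower of 11 with a median of 1.40, beside 12.3% and 9.02% of all genes. With BAFF it was 2 higher and 0 lower of 10 with a median of 0.74, beside 5.86% higher. At 30 h the medians were 0.33 with anti-IgM, -0.02 with BAFF and 0.10 with both. From 8 h to 30 h with both stimuli, 6 of 10 were counted lower and 0 higher, with a median of -1.17, beside 7.04% of all genes lower.

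Snhg15, the host of Snora9 in Gm11974 (mm10 chr11:6525591-6528760, minus strand, 4 exons), was at 40.6 FPKM at 0 h, at 199 with anti-IgM, 71.8 with BAFF and 118 with both at 8 h, and at 65.9, 48.2 and 49.2 at 30 h. It was highest in the anti-IgM library at 8 h, and its 30 h levels were above that at 0 h by less than the rule asks. The difference from 0 h was 2.27 on the log2 scale with anti-IgM and 1.52 with both at 8 h, counted and held, and 0.81 with BAFF, not counted. It was the member that differed most between anti-IgM and BAFF at 8 h among the hosts, at 1.46.

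1110038B12Rik (mm10 chr17:34950236-34952471, minus strand), the host of Snord52, was at 30.7 FPKM at 0 h. It was at 111 with anti-IgM, 74.7 with BAFF and 106 with both at 8 h, and at 84.4, 52.3 and 101 at 30 h. All 6 cultured libraries were above 0 h. It was counted higher in 5 of the 6 and missed the rule with BAFF at 30 h, where the difference was 0.75. Unlike Snhg15, it kept a difference of 1.43 with anti-IgM and of 1.68 with both at 30 h.

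Snhg17 went from 11.1 FPKM at 0 h to 32.3 with anti-IgM, 18.2 with BAFF and 31.0 with both at 8 h, and was at 12.3, 9.87 and 10.6 at 30 h. Dancr, the host of Snora26, was at 7.04 at 0 h, at 22.7, 14.7 and 24.6 at 8 h and at 9.11, 7.70 and 11.0 at 30 h. Snhg16, the host of Snord1a, Snord1b and Snord1c, was at 22.1 at 0 h, at 46.0, 27.1 and 52.1 at 8 h and at 21.2, 17.2 and 17.9 at 30 h. Each of these genes had its highest pair of levels with anti-IgM and with both at 8 h, and none was counted against 0 h at 30 h.

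Snhg20 had a different order at 8 h. It was at 13.4 FPKM at 0 h, at 35.6 with anti-IgM, 38.8 with BAFF and 38.4 with both at 8 h, and at 19.4, 22.3 and 15.1 at 30 h. The differences from 0 h at 8 h were 1.34, 1.46 and 1.45, all counted and held, and the BAFF library was not below the others. 5730408K05Rik, a single exon that spans Snora57 and starts close to 1810009A15Rik on the other strand, was at 8.03 at 0 h, at 32.3, 16.3 and 32.3 at 8 h, at 16.8 with anti-IgM at 30 h, and was not assembled in the other 30 h libraries.

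Not every host followed this pattern. 2410006H16Rik, which holds Snord49a, Snord49b and Snord65, was the most abundant host at 0 h with 135 FPKM and stood at 84.9, 88.1 and 122 at 8 h and 158, 113 and 139 at 30 h, and was never counted. AA465934, the host of Snord7, was at 7.59 FPKM at 0 h and at or under 5.14 in the 5 cultured libraries where it was assembled. Epb41l4aos was at 28.3 FPKM at 0 h and was highest with both at 8 h (52.7), a difference of 0.87 that was not counted. Rab26os was not assembled at 0 h and was at 12.5, 11.1 and 13.1 FPKM in the anti-IgM library at 8 h, the library with both at 8 h and the anti-IgM library at 30 h. 2900076A07Rik, whose annotated small RNA is named Mir1839, was at 5.78 FPKM at 0 h, at 2.44 with anti-IgM, 4.29 with BAFF and 7.29 with both at 8 h, and at 5.95, 6.99 and 2.34 at 30 h. It was counted lower than at 0 h with both at 30 h (-1.02).

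**Figure D2:**
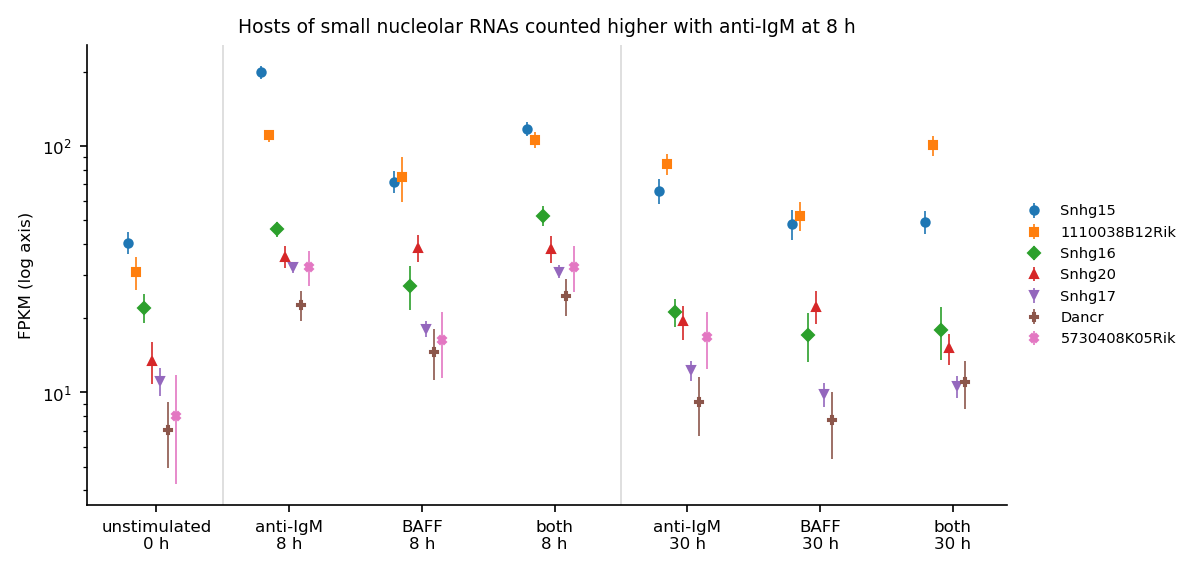
FPKM (log axis) of the 7 hosts of small nucleolar RNAs counted higher with anti-IgM at 8 h, in each of the 7 libraries, with bars for the deposited interval of counting error and "both" for anti-IgM and BAFF together. Snhg15 reached 199 FPKM with anti-IgM at 8 h against 40.6 at 0 h, and 5730408K05Rik has no point in the BAFF and both libraries at 30 h.

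Rn45s, listed as the 45S precursor of ribosomal RNA, had lower FPKM in culture than at 0 h. It was at 838 FPKM at 0 h, 222 with anti-IgM, 423 with BAFF and 362 with both at 8 h, and 401, 650 and 473 at 30 h. The 0 h library was the highest of all, and Rn45s was counted lower at 8 h with anti-IgM and with both, and at 30 h with anti-IgM. None of these counts was held, since its exon coverage differed by less than 1 on the log2 scale. Whether the FPKM of Rn45s follows the amount of precursor was not tested. A130040M12Rik, the most abundant member without a RefSeq match after Rn45s, was at 425 FPKM at 0 h, at 177, 529 and 319 at 8 h and at 88.6, 141 and 131 at 30 h. All 30 h libraries were below all others. A130040M12Rik was counted lower than at 0 h in 4 of the 6 comparisons, each of those at 30 h and that with anti-IgM at 8 h.

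Malat1 and Neat1, the abundant nuclear RNAs, were counted in no comparison. Malat1 (mm10 chr19:5795690-5802671, minus strand, a single exon) was at 207 FPKM at 0 h, at 161 with anti-IgM, 215 with BAFF and 170 with both at 8 h, and at 196, 237 and 182 at 30 h. Neat1 was at 136 at 0 h, at 132, 153 and 112 at 8 h and at 148, 157 and 114 at 30 h. Over the 15 comparisons the largest difference of either was under 1. Malat1 had its 4 lowest levels in the libraries with anti-IgM, its largest difference from 0 h being -0.36. The model of Neat1 in the merged annotation spans 3177 bases, so that the level is that of the short form and of the part that the long form shares with it.

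Proteins that build the bodies of these RNAs were read beside them. Of 16 paraspeckle proteins, 15 were compared with 0 h. With anti-IgM at 8 h 0 were counted, and their median difference was 0.26. Of 14 speckle proteins, 2 were counted higher and 0 lower with anti-IgM at 8 h, the splicing factors Srsf1 (42.8 to 92.9 FPKM) and Snrpa1 (33.7 to 82.2 FPKM), and the median was 0.63 beside 0.04 over all genes, of which 10.8% were higher.

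Genes of the nuclear exosome, which degrades many noncoding transcripts, and of its cofactors were read as a further list. With anti-IgM at 8 h, 6 of 24 compared were higher and 0 lower, and with both 7 were higher and 0 lower, against 10.8% and 12.3% of all genes counted higher. Exosc2, a subunit of its cap, was at 14.4 FPKM at 0 h and at 39.0 and 40.1 in those libraries. Exosc9, a subunit of the ring, was at 20.2 FPKM at 0 h and at 50.1 and 49.5. At 30 h the list had 3 higher with anti-IgM, 3 with BAFF and 1 with both, with 0 lower. Of all genes, 8.6%, 5.15% and 8.44% were higher in the same order, and 7.35%, 4.07% and 7.88% were lower. With so few genes in the list, these 30 h counts are a description.

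Norad (mm10 chr2:156388063-156392979, minus strand, listed as 2900097C17Rik) was highest in the 8 h libraries with anti-IgM. It was at 39.7 FPKM at 0 h, at 78.9 with anti-IgM, 55.1 with BAFF and 79.7 with both at 8 h, and at 50.5, 55.0 and 49.96 at 30 h. All cultured libraries were above 0 h, but the differences of 0.97 and 0.99 with anti-IgM and both at 8 h fell just under the minimum of 1, so that it was never counted. Its transcript of 4915 bases holds 11 matches to TGTANATA, the Pumilio binding element, read on the strand of the transcript. Of 12087 noncoding GENCODE transcripts of at least 1000 bases, 22.9% held a match and 2 held more than Norad. Malat1 held 0 and the long form of Neat1 held 4. A longer transcript can hold more matches. Per 1000 bases Norad held 2.24, and 11 other transcripts held as many or more. The stretch from base 2359 to base 2458 is shown for its neighbouring matches, in capitals.
Norad: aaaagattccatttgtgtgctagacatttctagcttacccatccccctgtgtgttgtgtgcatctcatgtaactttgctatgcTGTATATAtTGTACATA

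**Figure D3:**
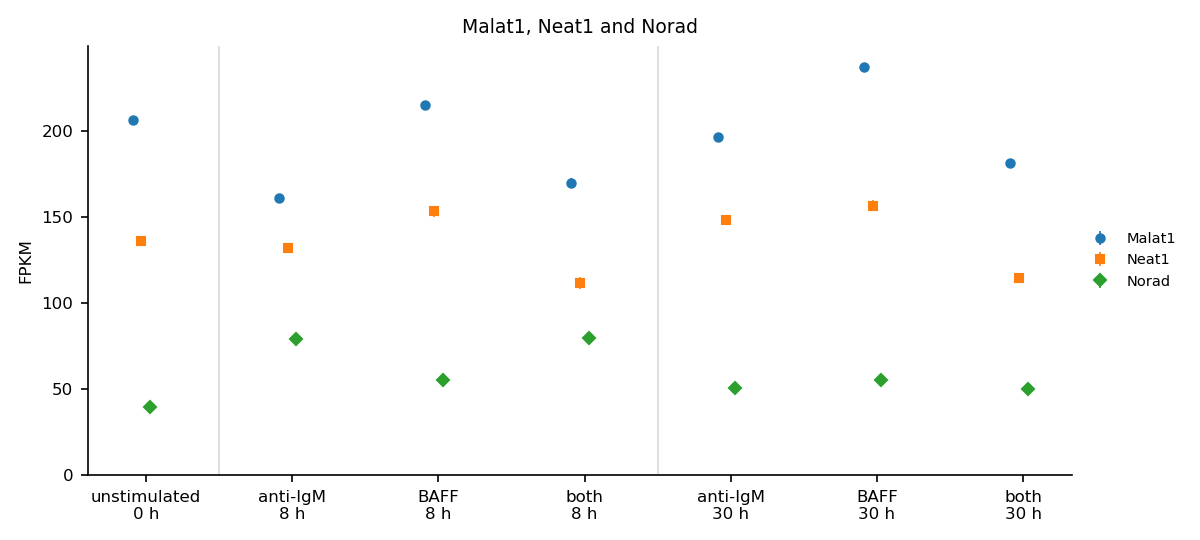
FPKM (linear axis from 0) of Malat1, Neat1 and Norad in each of the 7 libraries, with bars for the deposited interval of counting error, which is mostly smaller than the symbols, and "both" for anti-IgM and BAFF together. Norad is near 79 FPKM in the libraries with anti-IgM at 8 h and between 39.7 and 55.1 FPKM elsewhere.

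Peg13 was lower in every library with anti-IgM. It is an imprinted noncoding RNA inside an intron of Trappc9 (mm10 chr15:72805600-72810324, minus strand, a single exon). It was at 27.2 FPKM at 0 h, at 4.99 with anti-IgM, 14.1 with BAFF and 4.92 with both at 8 h, and at 7.99, 20.8 and 7.71 at 30 h. All 4 libraries with anti-IgM lay below all 3 without it. It was counted lower, and held, with anti-IgM and with both at 8 h (-2.23 and -2.25) and 30 h (-1.65 and -1.69), and against BAFF at both times (-1.33 and -1.28). The difference with BAFF alone was -0.90 at 8 h and -0.37 at 30 h, which was not counted.

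Gm15408 (mm10 chr5:149006962-149012776, plus strand) was at 10.1 FPKM at 0 h, at 1.41 with anti-IgM, 8.29 with BAFF and 1.58 with both at 8 h, and at 5.53, 4.89 and 1.85 at 30 h. At 8 h the libraries with anti-IgM were low and the BAFF library was near 0 h, with differences of -2.21, -0.26 and -2.11. At 30 h the library with anti-IgM alone was no longer below that with BAFF. Arhgap27os3 (Gm11648) was at 12.8 FPKM at 0 h, at 11.2 with BAFF and 3.34 with both at 8 h and at 8.38 with BAFF at 30 h, and was not assembled in the other 3 libraries, each with anti-IgM.

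Mirt1 (5830416P10Rik, mm10 chr19:53441212-53464796, minus strand, 10 exons) had its lowest measured level with both stimuli at 30 h. It was at 21.2 FPKM at 0 h, at 11.1 with anti-IgM, 28.2 with BAFF and 15.2 with both at 8 h, not assembled with anti-IgM at 30 h, and at 15.1 with BAFF and 1.98 with both at 30 h. The level with both at 30 h came from 1 piece that covered 5.59% of the exon bases. In the other libraries where Mirt1 was assembled, 88.2% to 99.7% were covered. The difference of both stimuli at 30 h was -2.90 from 0 h, -2.43 from BAFF and -2.44 from 8 h, each counted and held.

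AI504432 (mm10 chr3:107039504-107054322, plus strand) declined in smaller steps. It was at 20.2 FPKM at 0 h, at 17.04, 17.2 and 14.1 at 8 h and at 10.3, 14.5 and 7.37 at 30 h. Only both stimuli at 30 h met the rule, at -1.34. E130112N10Rik, which starts near Tapbpl on the other strand, was the 1 member counted lower in all 6 comparisons, from 6.42 FPKM at 0 h to between 0.849 and 1.76, but none of its counts was held.

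Some members had an assembled transcript in cultured cells but none at 0 h, which is not the same as absence. A430093F15Rik (mm10 chr19:10740947-10786043, plus strand, 4 exons) was not assembled at 0 h. It was at 15.4 with anti-IgM, 3.68 with BAFF and 18.8 with both at 8 h, and at 15.8, 1.63 and 10.2 FPKM at 30 h. The 4 libraries with anti-IgM were the highest, and the differences from BAFF were 1.81 with anti-IgM and 2.08 with both at 8 h and 2.68 and 2.09 at 30 h, all counted and held. No fold against 0 h is given because the gene is not listed there.

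D130020L05Rik, opposite an exon of Smek1, was at 1.87 FPKM with BAFF at 8 h and at 20.5 with anti-IgM, 21.8 with BAFF and 13.2 FPKM with both at 30 h. It was not assembled in the other 3 libraries, so the 30 h libraries were the high ones whatever the stimulus. At 0 h, 165 of the 203 members were assembled, beside 10717 of all 11778 named genes, which include genes under 5 FPKM. For the patterns that follow, no share of all genes is given, so the counts are a description. Of 38 members not assembled at 0 h, 7 were assembled in all 6 cultured libraries. Another 5 were assembled at 0 h alone, among them Il1bos (Gm14047) at 7.15 FPKM, beside Il1b, an inflammatory cytokine gene at 36.8 FPKM at 0 h and between 1.64 and 10.1 FPKM in the cultured libraries. Its pieces covered 1.43% of the exon bases. Mexis (AI427809), known from macrophages, was at 5.18 FPKM at 0 h and at or under 2.24 in the 3 cultured libraries where it was assembled. Macrophage markers were lower in the same libraries, as given above.

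**Figure D4:**
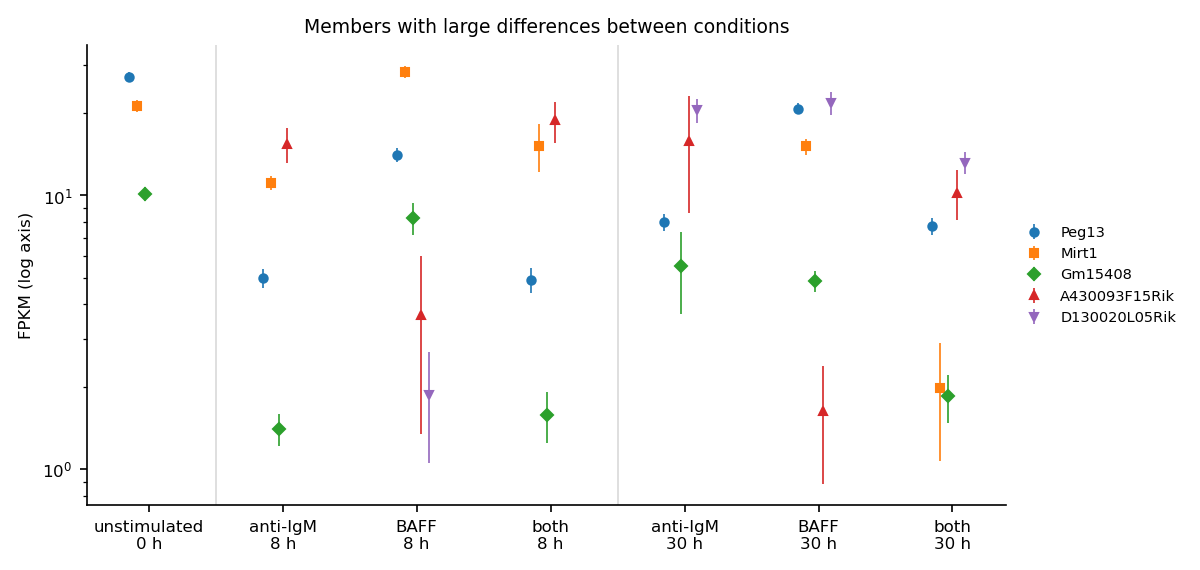
FPKM (log axis) of Peg13, Mirt1, Gm15408, A430093F15Rik and D130020L05Rik in each library where they were assembled, with bars for the deposited interval of counting error and "both" for anti-IgM and BAFF together. Peg13 lies at 4.99 and 4.92 FPKM in the 8 h libraries with anti-IgM, and A430093F15Rik has no point at 0 h.

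Direct comparisons of the stimuli counted more members lower with anti-IgM than with BAFF. At 8 h, 8 of 146 were higher with anti-IgM (5.48%) and 21 lower (14.4%), beside 4.83% and 8.67% of all genes. At 30 h, 8 of 156 were higher (5.13%) and 15 lower (9.62%), beside 4.08% and 4.73%. Both stimuli against BAFF gave 12 higher and 18 lower of 150 at 8 h, or 8% and 12%, beside 5.66% and 7.02% of all genes. At 30 h they gave 6 higher and 15 lower of 153, or 3.92% and 9.80%, beside 3% and 5.17%. These comparisons share the BAFF library of each time.

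Adding BAFF to anti-IgM gave no held count at either time. At 8 h 12 of 154 were higher (7.79%) and 5 lower (3.25%), beside 4.47% and 1.88% of all genes, and at 30 h 7 of 151 were higher (4.64%) and 9 lower (5.96%), beside 2.16% and 3.27%. From 8 h to 30 h, anti-IgM gave 15 higher and 16 lower of 151, or 9.93% and 10.6%, beside 8.16% and 5.38% of all genes. BAFF gave 8 higher and 15 lower of 156 over that time, or 5.13% and 9.62%, beside 3.72% and 4.38%. Both stimuli gave 4 higher and 23 lower of 145, or 2.76% and 15.9%, beside 5.72% and 7.04%. In the last, 10 of the 23 were held, and Snhg15, Snhg16, Snhg17, Snhg20 and Mirt1 were among them.

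Among the 115 members assembled in all 7 libraries, 18 (15.7%) had all 4 libraries with anti-IgM below all 3 without it, and 5 (4.35%) had them above. Over all 9062 genes at 5 FPKM or more assembled in all 7 libraries the shares were 12.4% and 12.1%. This split was chosen after the values were seen, and it mixes times and the presence of BAFF. Malat1, Peg13, AA388235, Fam120aos and Pisd-ps1 were among the 18. The 5 were 1110038B12Rik, Mtln, 2610001J05Rik, Ndufs5-ps and Gt(ROSA)26Sor, the locus known for the insertion of transgenes.

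RNAs of chromatin and of the X inactivation centre were read next. Firre, an X-linked nuclear RNA, was between 4.93 and 8.76 FPKM and never counted. Kcnq1ot1, an imprinted RNA opposite Kcnq1, was at 7.97 FPKM at 0 h, at 8.91, 16.3 and 3.52 at 8 h and at 1.9996, 8.58 and 2.76 at 30 h. It was counted lower than at 0 h with anti-IgM (-1.58) and with both (-1.25) at 30 h, from pieces that covered little of its exon. Ftx, of the X inactivation centre, was at 21.4 FPKM at 0 h and at 9.05 with anti-IgM at 8 h, and between 17.4 and 23.4 in the other libraries. The low library differed by -1.15 from 0 h, but its interval overlapped and it was not counted, whereas both stimuli at 8 h were counted higher than anti-IgM alone (1.13). Jpx, also of that centre, was between 1.11 FPKM with anti-IgM at 30 h and 6.67 FPKM with both at 30 h, a counted difference of 1.86. Pieces named Jpx covered 23.2% of its exon bases with anti-IgM at 30 h and 54.1% with both at 30 h. Xist, Tsix, H19 and Meg3 had no transcript of at least 300 bases to their name. Of 19 factors that bind Xist or act in X inactivation, 2 were counted higher with anti-IgM at 8 h, Spen and Pcgf5, and 0 lower, with a median difference of 0.20, near the background of 10.8% of all genes higher. Ezh2, the methyltransferase of Polycomb complex PRC2, was at 16.6 FPKM at 0 h, at 23.3, 20.4 and 24.1 at 8 h and at 57.4, 42.7 and 59.5 at 30 h, and was counted higher in each 30 h library.

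Pvt1, which lies beside Myc, was at 6.99 FPKM at 0 h, at 8.83, 6.45 and 8.99 at 8 h and at 2.67, 4.87 and 7.07 at 30 h. It was counted lower with anti-IgM at 30 h (-1.12), without being held. Myc was at 143 FPKM at 0 h, 263 and 264 with anti-IgM and both at 8 h, and 61.2, 29.8 and 59.9 at 30 h. Lockd, which lies downstream of the cell cycle inhibitor gene Cdkn1b, was between 6.53 and 12.5 FPKM in 5 libraries, at 27.3 with both at 30 h, and not assembled with both at 8 h.

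A microRNA lay inside 7 members, Snhg20, 2900076A07Rik and Ftx among them, whose levels are given with the other classes. A330023F24Rik, the host of Mir29b-2 and Mir29c, was between 1.24 and 5.13 FPKM and not assembled with both at 30 h. Raver1-fdx1l, with Mir7082, was assembled with anti-IgM at 8 h alone, at 27.5 FPKM. That level came from 1 piece, which covered 20.2% of the exon bases. Mir22hg was between 4.29 and 7.56 FPKM and Dleu2 between 4.50 and 7.50 FPKM, and neither was counted in any of the 15 comparisons. The mature microRNAs of Mir22hg and Dleu2, from RefSeq on GRCm38.p6, are shown with the seed, bases 2 to 8, in capitals, since the pair from Dleu2 shares its seed. They lie at chr11:75463772-75463793 (plus strand), chr14:61632075-61632096 and chr14:61631936-61631957 (minus strand). The libraries did not measure mature microRNAs.
mmu-miR-22-3p: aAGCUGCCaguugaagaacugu
mmu-miR-15a-5p: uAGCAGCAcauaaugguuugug
mmu-miR-16-5p: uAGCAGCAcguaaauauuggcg

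Antisense and divergent members were read beside their coding partners. With anti-IgM at 8 h, 24 pairs with overlapping exons were compared, the member was counted in 8, and the partner was counted the same way in 1, the other way in 1 and not counted in 6. Of 30 pairs that start within 1000 bases of each other without exon overlap, the member was counted in 10, and the partner was counted the same way in 3, the other way in 1 and not counted in 6. Of all genes, 10.8% were counted higher and 10.5% lower in that comparison, and the pairs are few. Some members are in more than 1 pair, so pairs are not separate members. Gm15545 supplied the pair counted the other way in both sets, with Bcl2l12 and with Prmt1. The differences had the same sign in 16 of the 24 pairs and 18 of the 30. Between 23.9% and 29.4% of the assembled transcripts carried no strand, so reads of such partners can be mixed.

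**Figure D5:**
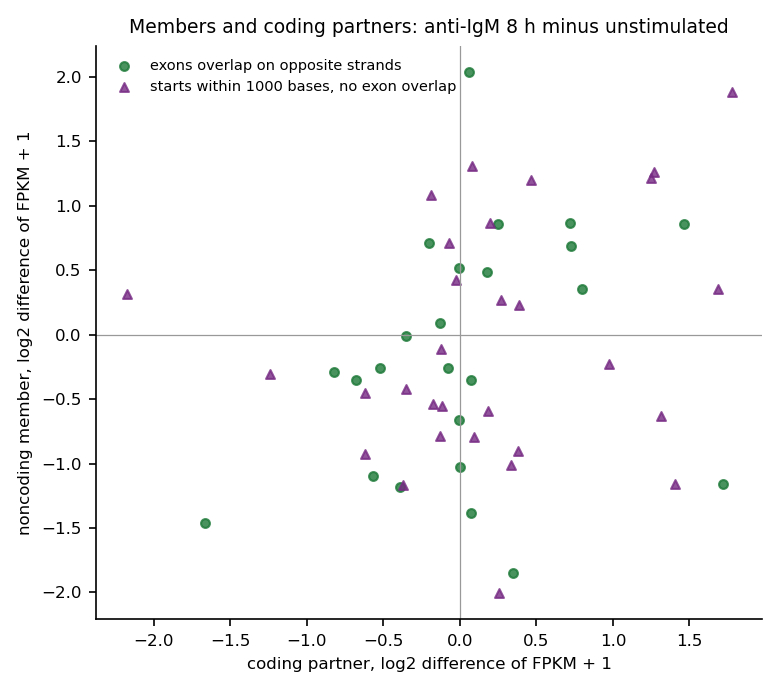
Log2 difference of FPKM plus 1, anti-IgM at 8 h minus unstimulated, of coding partners (x axis) and noncoding members (y axis), 1 point per pair, with circles for 24 pairs whose exons overlap on opposite strands and triangles for 30 pairs that start within 1000 bases. The points lie in all 4 quadrants, and 16 circles and 18 triangles have the same sign on both axes.

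Against 0 h, 6 pairs were counted the same way in at least 1 comparison. Where a member with overlapping exons was counted, few partners were counted the same way. These were 1 of 3 with BAFF and 2 of 5 with both at 8 h. At 30 h they were 1 of 5, 1 of 5 and 0 of 1 with anti-IgM, BAFF and both. Without exon overlap it was 0 of 2 and 2 of 6 at 8 h, and 0 of 4, 0 of 2 and 0 of 6 at 30 h. No share of all genes is given for the 6 pairs, which are a description. E230016M11Rik, opposite Gadd45a, a stress response gene of growth arrest, was at 8.84 FPKM at 0 h and at 2.57, 3.18 and 3.36 at 8 h and 2.80, 4.16 and 4.95 at 30 h. Gadd45a was at 75.1 FPKM at 0 h and between 11.9 and 23.9 in the cultured libraries, so that both were highest at 0 h. The pieces named E230016M11Rik covered a median of 19.1% of its exon bases. A930024E05Rik, which starts beside the histone demethylase gene Kdm2b, was at 3.95 FPKM at 0 h and at 10.9 with anti-IgM and 10.8 with both at 8 h. Kdm2b was at 25.8 FPKM at 0 h and at 63.8 and 58.5 in those libraries.

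0610012G03Rik and Ncbp2, a gene of the nuclear cap-binding complex, were counted higher together with anti-IgM at 8 h, where Ncbp2 went from 10.9 to 27.3 FPKM. 5730408K05Rik and 1810009A15Rik were higher together with anti-IgM and with both at 8 h, where 1810009A15Rik went from 6.10 FPKM at 0 h to 23.3 and 23.6. 2810025M15Rik, opposite Rasal2, was at 4.75 FPKM at 0 h and 13.2 with both at 8 h, and Rasal2 went from 1.79 to 11.6 FPKM. Tomm6os (Gm14872), opposite Tomm6, a gene of the mitochondrial import channel, was at 4.87 FPKM at 0 h, 41.1 with BAFF at 8 h and 37.2 with BAFF at 30 h, and at or under 10.1 in the anti-IgM libraries where it was assembled. Its pieces covered a median of 15.6% of its exon bases. Tomm6 was at 30.6 FPKM at 0 h and at 120 with BAFF at 30 h, where both were counted higher.

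In other pairs the member was counted and the partner was not, or was counted the other way. 9130221H12Rik, opposite Gsk3a, was at 17.9 FPKM at 0 h, at 6.24 with anti-IgM, 18.4 with BAFF and 5.84 with both at 8 h, and between 13.8 and 17.7 at 30 h, while Gsk3a stayed between 32.7 and 40.8 FPKM. Both 8 h libraries with anti-IgM were low, and these counts were not held. Gm15545 starts beside Prmt1, an arginine methyltransferase gene, and was at 9.56 FPKM at 0 h and 3.74 with anti-IgM at 8 h, where Prmt1 went from 36.0 to 97.0 FPKM.

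Of the 13 members that RefSeq now lists as protein coding, several encode small proteins. With anti-IgM at 8 h, 2 were counted higher and 0 lower of 11 compared, beside 10.8% and 10.5% of all genes. One was Mtln (1500011K16Rik), which encodes a mitochondrial microprotein, at 6.43 FPKM at 0 h, 15.4 with anti-IgM, 8.73 with BAFF and 15.3 with both at 8 h, and 12.8, 9.07 and 11.0 at 30 h. The other was 0610012G03Rik, at 9.67 FPKM at 0 h and 23.7 with anti-IgM at 8 h. Nbdy, a microprotein gene of mRNA decapping, was between 3.32 and 5.63 FPKM, and Pigbos1 between 12.4 and 24.4 FPKM. 2900008C10Rik, now part of Bcor, a corepressor gene, was counted lower than at 0 h with anti-IgM and with both at 30 h (-1.54 and -1.16).

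Pseudogenes formed the last class. Of 20 compared with anti-IgM at 8 h, 1 was higher and 1 lower, beside 10.8% and 10.5% of all genes, and at 30 h 1 was higher and 4 lower of 19, beside 8.6% and 7.35%. Pisd-ps1 was at 140 FPKM at 0 h, at 77.6 with anti-IgM, 199 with BAFF and 72.0 with both at 8 h, and at 107, 176 and 91.4 at 30 h. Every library with anti-IgM was below every library without it, and the counts against BAFF at 8 h were held. H2-K2, a pseudogene of MHC class I, was at 45.9 FPKM at 0 h, 24.3, 60.3 and 33.7 at 8 h, then 20.8 with anti-IgM and 42.1 with BAFF at 30 h, where it was not assembled with both. Reads of pseudogenes can come from a near-identical parent gene, and these values are uncertain for that reason.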

How the data were processed

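RNA of 7 mouse B cell libraries was sequenced, 1 library per condition. Per the submitters' processing notes, CASAVA 1.8.2, TopHat2 2.0.5, Bowtie2 2.0.0.7 and Cufflinks 2.0.2 were used with the mm10 build, and the strand setting is not given in the sources used here. The authors deposited, for each library, assembled transcripts with FPKM and a lower and upper bound, taken here to lie 2 standard deviations of the count away from the level, and a merged set of transcripts without levels, used for names, exons and positions.

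Each assembled transcript of at least 300 bases was named by the gene of the merged set with the most overlapping exon bases on the same strand, or on either strand where it had none, and ties went to the gene with the shorter exon length. FPKM was summed per gene. Shorter pieces held 66.6% to 74.4% of a library's summed FPKM and were left out. Depth was recovered from FPKM, bounds and lengths, and 88.2% to 89.8% of low transcripts that lie alone gave whole reads within 0.02. Differences are of log2(FPKM + 1), which understates those of low genes, and every comparison was made on all genes of the table. RefSeq and GENCODE gave current names, small RNAs and sequences; 184 members were matched by accession, 7 by symbol and 8 by an older symbol.

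Named were members of a list of well described noncoding RNAs, members of at least 50 FPKM, the 6 largest counted differences each way in the 6 comparisons with 0 h and the 3 largest in the other 9, members next to the 5 FPKM minimum, and coding partners; hosts of small RNAs, genes now coding, members assembled in few libraries and single partners were picked after their values were seen. The members, lists and rules were chosen with earlier results of these data known. The steps were tested on simulated data. Figures were drawn with matplotlib 3.10.9, and values computed with pandas 2.3.3 and numpy 2.4.6 under Python 3.11.15. The alternatives tried are given in the closing section.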

Additional observations from a re-analysis of the deposited data

Results flagged for a closer look

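Tomm6os (Gm14872), opposite Tomm6, differed in direction between the stimuli at 30 h. Its log2 difference from 0 h was -1.02 with anti-IgM, from 4.87 to 1.90 FPKM, and 2.70 with BAFF, to 37.2 FPKM, so that the effects differed by -3.72. Each condition had 1 library and the difference between the stimuli was not tested beyond the counting intervals. Tomm6 itself was at 30.6 FPKM at 0 h, 18.8 with anti-IgM and 120 with BAFF at 30 h.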

How the results depend on the processing

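Each condition had 1 library, so no replicate could be left out. No paired analysis was possible because no condition has replicates. The counts of members higher and lower than at 0 h depended most on how a member not assembled in a library was treated. In the report these were 16 and 23 with anti-IgM, 7 and 9 with BAFF and 12 and 18 with both at 8 h, then 5 and 27, 4 and 9, and 5 and 20 at 30 h. With members not assembled set to 0, they became 38 and 45 with anti-IgM, 30 and 28 with BAFF and 37 and 41 with both at 8 h, then 24 and 43, 29 and 26, and 27 and 43 at 30 h. The same setting gave 70 and 52 different (8 h, then 30 h) between anti-IgM and BAFF, 40 and 46 between both and anti-IgM, and 66 and 52 between both and BAFF. Between 8 h and 30 h it gave 63 with anti-IgM, 53 with BAFF and 67 with both.

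With exon coverage in place of FPKM, 25, 14 and 22 members were higher at 8 h (anti-IgM, BAFF, both) and 12, 12 and 15 at 30 h, 17 were lower with anti-IgM at 30 h, and 10 differed between both and anti-IgM at 8 h. By this measure more members were higher than lower with anti-IgM and with BAFF at 8 h and with BAFF at 30 h. With the most abundant transcript alone, 5 were lower with BAFF at either time, 12 were lower with both at 30 h, and 14 differed between the BAFF libraries. Scaling to equal medians shifted the libraries by -0.08 to 0.08 on the log2 scale and gave 15 lower with BAFF at 8 h and 2 higher with BAFF at 30 h. A pseudocount of 0.1 gave 9 higher with anti-IgM, 12 higher with both and 14 lower with BAFF at 30 h, and summing all transcripts gave 8 higher with anti-IgM at 30 h. A minimum of 10 FPKM left 112 members.

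Alternatives chosen after seeing the data left out members. Without hosts, the ribosomal precursor, pseudogenes and genes now coding, 5 (anti-IgM) and 4 (both) were higher at 8 h and 3 and 3 at 30 h. Among members assembled in all 7 libraries, 15 were lower with anti-IgM and 10 with both at 8 h, and with both at 30 h 13 were lower and 2 higher. The causes of these shifts other than the smaller number of members were not tested. Counts stayed within 1.5 times when members sharing exon bases on the same strand (12 counts, also chosen after seeing the data), transcripts without strand or the low-level filter were left out, when intervals were not used, and when 5 FPKM was asked for in 1 of the libraries compared.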

Other observations

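The members took 0.998% of the FPKM summed over all named genes at 0 h. At 8 h the share was 0.776% with anti-IgM, 1.02% with BAFF and 0.841% with both, and at 30 h it was 0.654%, 0.852% and 0.650% in the same order. Without Rn45s the summed level was 3129 FPKM at 0 h, 2917, 3688 and 3232 FPKM at 8 h and 2550, 2925 and 2483 FPKM at 30 h. The 8 h BAFF library was the highest by this sum and the 30 h library with both the lowest.

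Promoters of members held more CpG than those of all genes, a mean of 17.9 per 300 bases in 139 members against 12.4 in 32851 promoters. Of members counted lower with anti-IgM at 8 h, 5 of 16 (31.2%) held a match to the kappaB site on either strand, against 9.35% of members and 8.46% of all promoters. Of those counted higher, 0 of 14 did. The kappaB site was not alone in this. The AP-1 site TGACTCA was in 3 of the 16 (18.8%) and 0 of the 14, against 3.6% of members and 5.2% of all promoters. The E-box, as given above, was in 25% of the 16 and 14.3% of the 14. The number of promoters is small, 6 motifs were searched, and a match is not a bound site.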
